A study of Mus musculus with 18 samples.

Results

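The mitochondrial respiratory chain and ATP synthase are built from subunits of both genomes, and the subunits encoded in the nucleus are described here in livers and liver tumors of Alb-R26Met mice. They were taken by symbol as the genes that begin with Ndufa, Ndufb, Ndufc, Ndufs or Ndufv and a digit, the 4 Sdh genes, and the genes that begin with Uqcr, with Cox4 to Cox8, or with Atp5. This gave 89 of the 28442 genes measured. They comprise 7 core and 29 accessory subunits of complex I, 4 subunits of complex II, 8 of complex III, 12 usual subunits of complex IV, 8 tissue-restricted isoforms of complex IV and 17 subunits of complex V. The remaining genes are Atp5if1, an inhibitor of the ATP synthase, and 3 copies of subunit genes, Ndufs5-ps, Cox5b-ps and Ndufb11b. Of the 89 genes, 83 were expressed enough to be tested between tumors and livers. Cox4i2, Cox6a2, Cox7b2, Cox8b, Cox8c and Ndufb11b were not.

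Complexes I and II take electrons from NADH and succinate and pass them to coenzyme Q, complex III passes them to cytochrome c, and complex IV passes them to oxygen. Complexes I, III and IV pump protons across the inner membrane while doing so, and complex V makes ATP from the flow of protons back. Complex II also is the succinate dehydrogenase of the tricarboxylic acid cycle. Hepatocytes are rich in mitochondria and depend on the chain for gluconeogenesis and urea synthesis.

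RNA was sequenced from 6 non-tumoral livers of mice that had not developed tumors and from 12 advanced tumors. All animals were male F1 C57:129Sv mice with the same alleles, Alb-Cre and R26stopMet, so livers and tumors both carried the chimeric mouse-human Met transgene, which is switched on where Cre is driven by the Alb promoter. There were 17 mice for the 18 samples, as 1 mouse gave tumors 11 and 12. Livers were taken at 52 to 71 weeks of age and tumors at 49 to 72 weeks. Sample names carry the tag E19 in 2 livers and 7 tumors and the tag E20 in 4 livers and 5 tumors, and the sources used here do not say what the tags stand for. Livers with E19 were 52 to 55 weeks old and livers with E20 55 to 71 weeks, so tag and age cannot be told apart among livers. Tumors of both tags spanned 49 to 72 weeks. Levels are TPM, a share of transcripts per length, divided by a factor per sample. Bulk samples do not separate fewer cells of a type from less RNA per cell.

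In the deposited table the 89 genes held between 1.14% and 1.57% of the total in livers and between 0.81% and 1.38% in tumors other than tumor 2, where they held 0.0759%. Tumor 2 stood apart, since the gene Siglece alone took 82.9% of its total, against 17.9% to 53.4% in the other samples, and its scaling factor was 0.195 against 0.79 to 1.42. Only 8718 genes were above 0 in tumor 2, and 1 deposited TPM became 5.14 TPM after scaling. Among the other tumors, the lowest share of the 89 genes was that of tumor 11, where Siglece took 53.4% of the total. Shares of the total are lowered where Siglece takes more of it. The summed level of the hepatocyte markers was high in all samples, at 49155 to 66236 in livers and 40434 to 80962 in tumors. Of the 10 hepatocyte markers, 4 were lower and 1 was higher in tumors. Their log2 fold changes ran from -4.61 to 0.915, with a median of -0.46. Of 6 endothelial markers 2 were higher (summed level 38.1 to 76.0 in livers and 33.96 to 83.99 in tumors), and of 5 macrophage markers 2 were lower (29.1 to 70.4 and 8.87 to 49.03). Of the 4 leukocyte markers 1 was tested and was not called (2.01 to 4.74 in livers and 1.003 to 10.45 in tumors). The part of these markers in the results was not tested.

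For each sample, the log2 level of every tested gene was set against its mean over the livers. The median over the 83 genes lay between -0.29 and 0.57 in livers, with liver 5 highest. In tumors other than tumor 2 it lay between -0.61 and 0.10, and in tumor 2 at -1.80. The medians followed the tag within each tissue. Livers with E19 were at 0.09 and 0.57, above the 4 livers with E20, at -0.29 to -0.06. Tumors with E19 lay between -0.40 and 0.10, above all 5 tumors with E20, at -1.80 to -0.45. Tumors 11 and 12 of the same mouse carried different tags and had medians of -0.19 with E19 and -0.45 with E20. The lowest tumor value was that of tumor 2 in 76 of the 83 genes, and the highest liver value was that of liver 5 in 69.

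**Figure D1:**
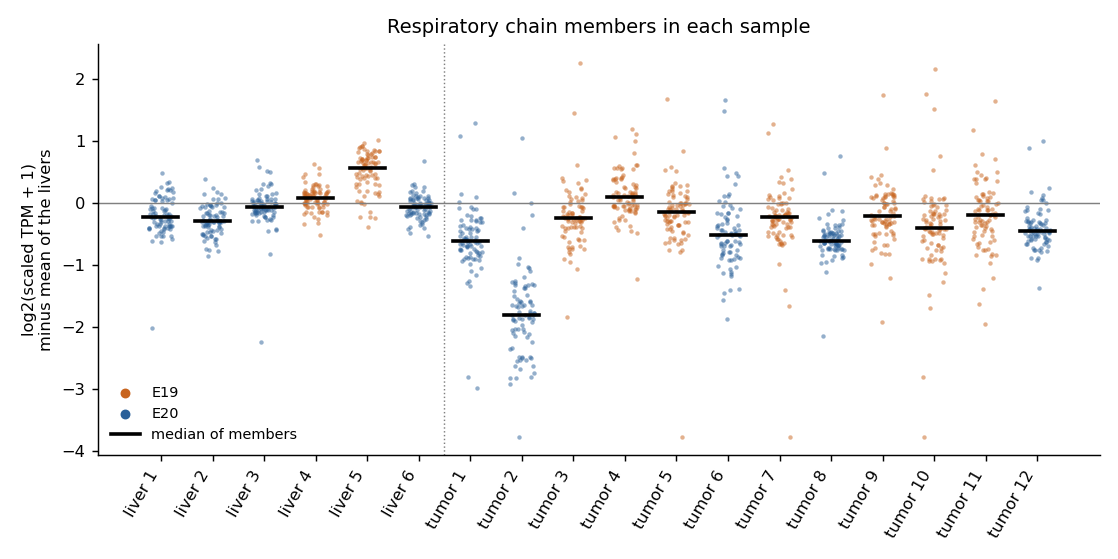
Each point is 1 of the 83 tested respiratory chain genes in 1 sample, as log2 of scaled TPM plus 1 minus the mean of the 6 livers, coloured by tag, and bars are medians. Tumor 2 has the lowest median (-1.80) and liver 5 the highest (0.57), and within each tissue the E20 medians lie below the E19 medians.

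To quantify the tag, E20 was compared with E19 in a limma fit that also held the difference between tumors and livers. By this measure 45 of the 83 genes were lower in E20, where 7.81% of all genes tested were lower, with a median log2 difference of -0.59 against -0.07 over all genes. None was higher, by adjusted or by unadjusted p (0 genes each), where 13.3% of all genes were higher. Without tumor 2, 41 genes were lower in E20 (7.11% of all genes), with a median of -0.42. The lowest difference was that of Atp5mg, a membrane subunit of the ATP synthase, at -0.99 ± 0.25 (SE, limma adjusted p = 0.00967). Other genes moved with the tag too. Of 78 cytosolic ribosomal protein genes 41 were lower in E20, and of 78 mitochondrial ribosomal protein genes 37. The number of genes above 0 was also tied to the tag, with 11508 to 12394 in E19 samples and 12584 to 13819 in E20 samples other than tumor 2. The comparison of tumors with livers is given with and without the tag.

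Between tumors and livers, 15 of the 83 genes were lower in tumors at an adjusted p under 0.05 (18.1%), where 9.28% of all 11708 genes tested were lower. Atp5if1 and Cox5b-ps were higher, 2.41% of the 83 genes, where 9.77% of all genes were higher, but Cox5b-ps was at 0 in all livers and passed the filter on low values through tumors alone. The log2 fold change was below 0 in 80 of the 83 genes (72 without tumor 2, 67 without tumor 2 and liver 5 and 76 with scaling to the total without the highest gene), with a median of -0.43 against -0.06 over all genes, and 33 genes were lower at an unadjusted p under 0.05. With the tag as a covariate, 41 genes were lower (49.4%), where 11.2% of all genes were, among them all 15 of the fit without the tag. The median log2 fold change was then -0.58, against -0.06 over all genes. Again Atp5if1 and Cox5b-ps were higher, where 10.5% of all genes were. Without tumor 2, 20 genes were lower (11.4% of all genes) and 2 higher (14.9% of all genes), with a median of -0.29. Without tumor 2 and with the tag as a covariate, 44 genes were lower (12.3% of all genes), with a median of -0.39 against 0.01 over all genes. The counts with the tag rest on 2 livers with E19. Of these, 1 is liver 5, the highest liver in 69 of the 83 genes. No fit with the tag was run without liver 5.

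Within E19 samples alone, 7 tumors against 2 livers, 11 of 82 genes were lower, where 5.49% of all genes were. Within E20 samples alone, 5 tumors against 4 livers, Ndufs7 was the 1 gene of 81 called lower (1.23%), a share near that of all genes (1.11%). The median was -0.68 with tumor 2 among the 5 tumors, and no E20 fit was run without tumor 2. Against the mean of all livers, the median of tumor 2 was -1.80 and those of the other E20 tumors were -0.61 to -0.45. No difference between the 2 contrasts passed the test, neither for all genes (limma interaction, 0 genes by adjusted and 348 by unadjusted p) nor for the respiratory chain (0 genes by either). In 1 gene, Ndufs7, every tumor lay below every liver (1.2%), a share near that of all genes (0.982%). In 0 genes did every tumor lie above every liver (2.18% of all genes). The counts rested in part on liver 5. Without it 7 genes were lower (8.43%), a share near that of all genes (7.88%). Without liver 4 or liver 6, 9 genes were lower (10.8%), where 6.46% and 6.08% of all genes were. They also rested on the scaling, since 6 genes were lower and 2 higher with scaling to the total without the highest gene (1132 higher and 684 lower of all genes, against 1144 and 1086), and 1 was lower and 1 higher without any scaling, which moved the median of all genes to -0.18.

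**Figure D2:**
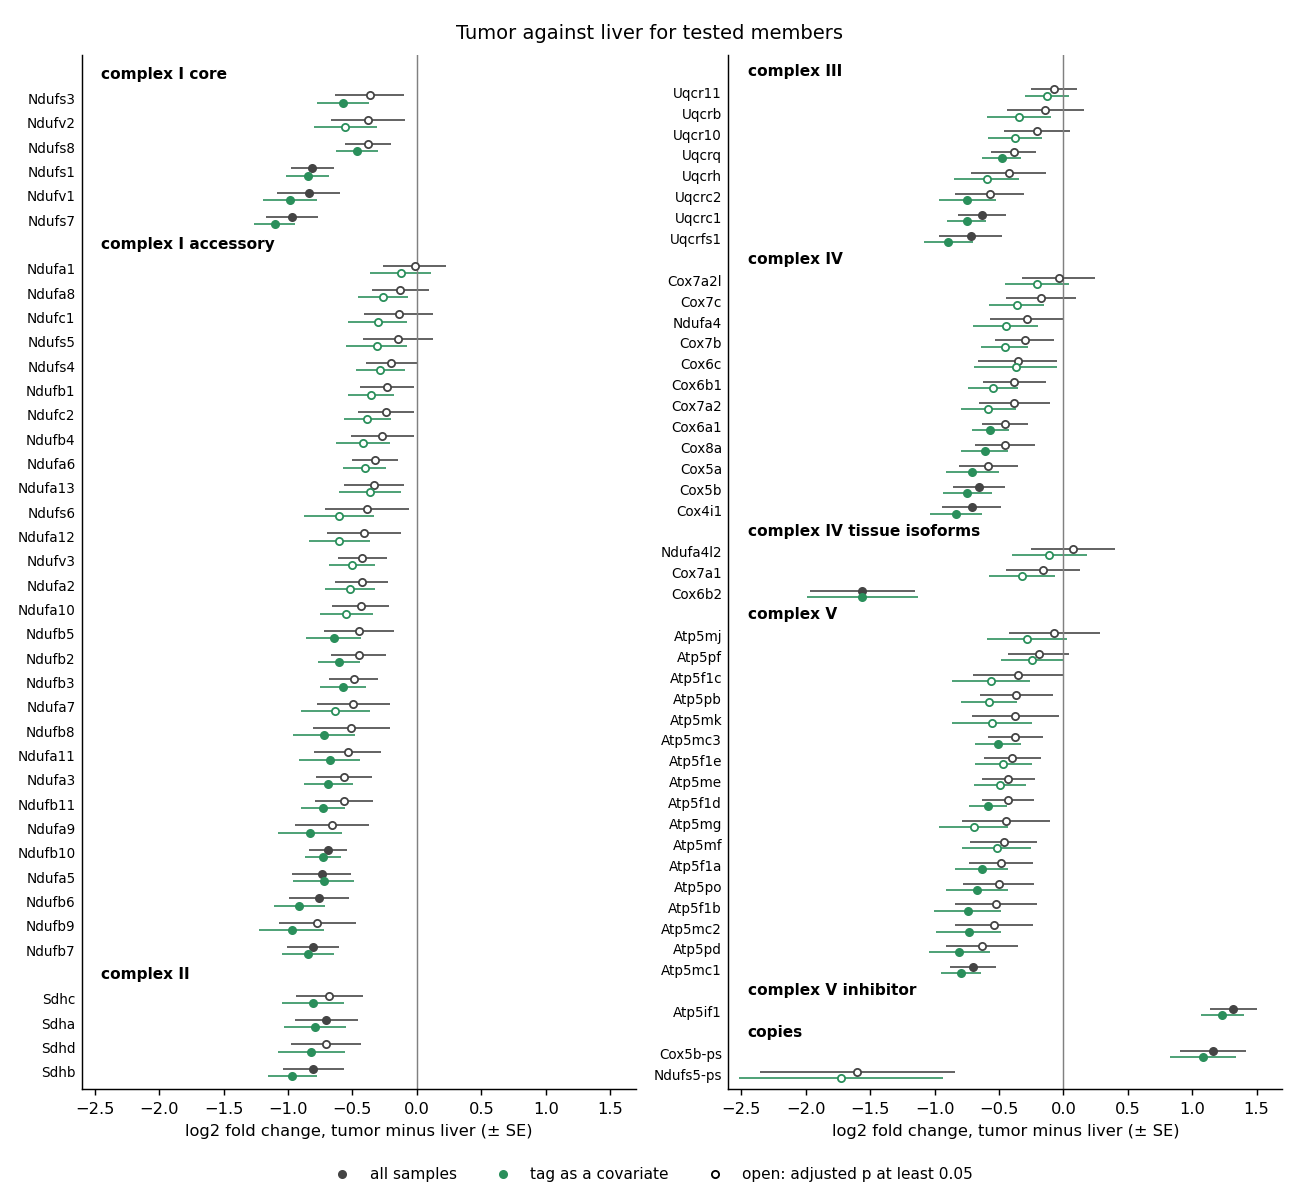
Points are log2 fold changes of tumors against livers with their standard errors for 82 of the 83 tested genes, grouped by complex, from all samples (grey) and with the tag as a covariate (green), filled where the adjusted p is under 0.05. All plotted genes of complexes I, II, III and V lie below 0 in both fits, 6 of which are above 0 without tumor 2 and 3 with scaling to the total without the highest gene, and Atp5if1 lies above 1.

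Complex I held 7 of the 15 genes lower in tumors. Of the core subunits, which carry the flavin and the iron-sulfur clusters, 3 of 7 were lower, and 6 of 7 with the tag as a covariate. With the tag and without tumor 2, 4 of 7 were lower. All 7 had log2 fold changes below 0 (median -0.48 in all samples). Ndufs7, the subunit with the last iron-sulfur cluster before coenzyme Q, lies on chromosome 10 of GRCm38.p6 from 80249105 to 80256794 (Entrez 75406). Its level in the 6 livers was 61.5, 68.5, 65.2, 91.4, 105 and 65.6 TPM in order of their numbers. In the 12 tumors it ran from 20.6 to 53.2 TPM, with a median of 41.7. All tumors therefore lay below the lowest liver, tumor 2 lowest and tumor 6 next at 24.6. Tumors and livers differed by a log2 fold change of -0.97 ± 0.20 (SE, limma adjusted p = 0.00176). It was -1.09 in E19 samples alone (limma adjusted p = 0.0131) and -1.08 in E20 samples alone (limma adjusted p = 0.0353). Ndufs7 was the 1 gene of the chain called lower within each tag, and the count within E20 was near the share of all genes.

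Ndufs1, the largest subunit of the complex and carrier of several iron-sulfur clusters, lies on chromosome 1 from 63143592 to 63176822. It was at 27.2 to 41.9 TPM in livers (median 34.6) and at 10.3 to 28.1 TPM in tumors (median 20.1). In 11 of 12 tumors it was below the lowest liver, and the log2 fold change was -0.81 ± 0.17 (SE, limma adjusted p = 0.00191). Ndufv1, which binds NADH and the flavin, was at 104 to 129 TPM in 5 livers and at 241 in liver 5. In tumors it was at 30.8 to 127 TPM (median 81.6), and 10 of 12 lay below the lowest liver. Its log2 fold change was -0.84 ± 0.24 (SE, limma adjusted p = 0.019) and did not pass the test without liver 5. Among the other core subunits Ndufs8 was lower with the tag as a covariate (limma adjusted p = 0.0468), but not when tumor 2 was also left out (limma adjusted p = 0.0506). Ndufv2 was not called (-0.56 with the tag and -0.17 without tumor 2).

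Among the 29 accessory subunits Ndufb7, Ndufb10, Ndufb6 and Ndufa5 were lower in tumors, and 13 were with the tag as a covariate. The 29 log2 fold changes were all below 0, from -0.81 for Ndufb7 to -0.02 for Ndufa1, but without tumor 2 those of Ndufa1 (0.16), Ndufc1 (0.04), Ndufs5 (0.02) and Ndufa8 (0.006) were above 0, as was that of Ndufa1 with scaling to the total without the highest gene (0.06) or by the median of ratios (0.01). With the tag, 9 of 11 Ndufb genes, most of them subunits of the membrane arm, and 4 of 12 Ndufa genes were lower. Ndufb10, on chromosome 17 from 24722060 to 24724423, was at 71.8 to 100 TPM in livers (median 90.1) and at 36.0 to 72.2 TPM in tumors (median 54.9). Of the 12 tumors, 11 lay below the lowest liver, and tumor 4 was higher by less than 1 TPM. Its log2 fold change was -0.69 ± 0.15 (SE, limma adjusted p = 0.00218). Ndufb7 was at 46.9 to 63.7 TPM in livers and at 15.4 to 49.2 TPM in tumors (log2 fold change -0.81, limma adjusted p = 0.00707). Between tags, Ndufb10 and Ndufb7 differed by -0.16 and -0.15 on the log2 scale (limma adjusted p = 0.402 and 0.599). Ndufa5 differed by 0.07 and Ndufb6 by -0.60 (limma adjusted p = 0.856 and 0.0262). Of the core subunits called in all samples, Ndufs1 differed by -0.15 (limma adjusted p = 0.525). Ndufs7 and Ndufv1 were lower in E20, by -0.54 and -0.59 (limma adjusted p = 0.0173 and 0.039). Ndufv3, the accessory subunit with the highest level in livers (117.9 to 188.8 TPM), was at 51.4 to 145.5 TPM in tumors and was not called (-0.42 ± 0.19, SE, limma adjusted p = 0.13).

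All 4 genes of complex II had log2 fold changes between -0.80 and -0.68, in all samples the lowest median of any complex (-0.71). Without tumor 2 the 4 log2 fold changes lay between -0.68 for Sdhb and -0.49 for Sdhc. Sdha and Sdhb, the catalytic subunits that carry the flavin and the iron-sulfur clusters, were called in all samples, and all 4 were with the tag as a covariate. Sdhb, on chromosome 4 from 140961271 to 140979198, was at 74.7, 70.4, 89.7, 105, 204 and 100 TPM in livers 1 to 6. In tumors it ran from 25.7 to 98.3 TPM with a median of 55.1, and 9 of 12 lay below the lowest liver. Liver 5 stood far above the other livers, and the groups overlapped through tumors 4, 5 and 9. The log2 fold change was -0.80 ± 0.24 (SE, limma adjusted p = 0.0209), and did not pass the test without liver 5. Sdha was at 118 to 156 TPM in livers (median 148), while 11 tumors lay at 30.8 to 103 TPM and tumor 4 at 210, above every liver. Its log2 fold change was -0.70 ± 0.25 (SE, limma adjusted p = 0.0497), the weakest call among the 15, and 25 of 37 other settings did not call it. The membrane anchors Sdhc and Sdhd, which hold the coenzyme Q site, were at 74.1 to 142 and 101 to 238 TPM in livers and at 15.4 to 89.3 and 36.7 to 147 TPM in tumors. Neither was called in all samples (limma adjusted p = 0.0748 for Sdhc and 0.0741 for Sdhd), and both were with the tag as a covariate (limma adjusted p = 0.0204 and 0.0293).

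In complex III, Uqcrc1, a core protein on the matrix side, and Uqcrfs1, the Rieske iron-sulfur protein, were lower in tumors, and Uqcrc2 and Uqcrq were in addition with the tag as a covariate. The call of Uqcrfs1 (-0.72 ± 0.24, SE, limma adjusted p = 0.0405) was lost in 17 of 37 other settings. All 8 log2 fold changes were below 0, with a median of -0.41, and 7 were without tumor 2 (Uqcrb at 0.04) or with scaling to the total without the highest gene. Uqcrc1 was at 142 to 285 TPM in livers (median 174) and at 68.3 to 165 TPM in tumors (median 116). In 9 of 12 tumors it was below the lowest liver, with the lowest value in tumor 6 and not in tumor 2. The log2 fold change was -0.64 ± 0.19 (SE, limma adjusted p = 0.0201) and did not pass the test without liver 4, 5 or 6. Uqcrq, the most abundant gene of the complex in livers (298 to 557 TPM), was at 180 to 385 TPM in tumors. Its log2 fold change was -0.39 ± 0.18 (SE, limma adjusted p = 0.137), and -0.48 with the tag (limma adjusted p = 0.0306). Cyc1, the cytochrome of complex III whose symbol is not covered by the choice of genes, was lower in tumors as well (-0.66, limma adjusted p = 0.0463), a call lost in 20 of 37 other settings.

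Of the 12 usual nuclear subunits of complex IV, Cox4i1 and Cox5b were lower in tumors, and Cox5a, Cox6a1 and Cox8a were in addition with the tag as a covariate. Cox4i1 and Cox5a are among the subunits that join the complex first, and Cox5b binds zinc on the matrix side. Cox4i1 was at 215 to 382 TPM in livers (median 286) and at 66.8 to 271 TPM in tumors (median 188), and 10 of 12 tumors lay below the lowest liver. Its log2 fold change was -0.71 ± 0.23 (SE, limma adjusted p = 0.0319). Cox5b was at 194.4 to 218.2 TPM in 5 livers and at 136 in liver 2, and at 56.5 to 183 TPM in tumors (log2 fold change -0.65, limma adjusted p = 0.028). Both lost the call without liver 3, 4 or 5. Cox6a1, the most abundant subunit in livers (299 to 466 TPM), was at 144 to 334 TPM in tumors (log2 fold change -0.45, limma adjusted p = 0.0837), and was lower with the tag (-0.57, limma adjusted p = 0.00825). Genes with values close to those of livers were Cox7a2l, a supercomplex assembly factor (-0.04 ± 0.29, and 0.15 without tumor 2), and Cox7c (-0.17 ± 0.27, and -0.05 without tumor 2).

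Complex V differed from livers in 1 of 17 subunits in all samples and in 8 with the tag as a covariate, while all 17 log2 fold changes lay below 0 (median -0.43), and 16 did without tumor 2 (Atp5mj at 0.19) or with scaling to the total without the highest gene (Atp5mj at 0.01). The 1 gene was Atp5mc1, on chromosome 11 from 96072793 to 96075694, which encodes the c subunit of the rotating ring. It was at 300.2, 215, 228, 320.4, 365 and 271 TPM in livers 1 to 6 and at 92.5 to 219 TPM in tumors (median 178). In 11 of 12 tumors it was below the lowest liver. This gave a log2 fold change of -0.70 ± 0.18 (SE, limma adjusted p = 0.00793). Atp5f1a and Atp5f1b, the alpha and beta subunits of the catalytic head, were the most abundant genes of the chain in livers, at 647 to 1069 and 493 to 944 TPM. In tumors they were at 216 to 944 and 108 to 830 TPM. Neither was called in all samples (log2 fold changes -0.48 and -0.52, limma adjusted p = 0.185 and 0.281), with -0.33 and -0.31 without tumor 2, and both were with the tag (-0.63 and -0.74, limma adjusted p = 0.0341 and 0.0466).

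Atp5if1, on chromosome 4 from 132530555 to 132535450, was higher in tumors. It encodes the inhibitory factor that binds the catalytic head and blocks ATP hydrolysis when the proton gradient falls. It was at 20.5, 11.3, 12.3, 16.1, 14.5 and 12.6 TPM in livers 1 to 6. In tumors it ran from 20.4 to 50.3 TPM with a median of 38.6, and 11 of 12 tumors lay above the highest liver, tumor 8 missing it by less than 1 TPM. Tumor 2, with low values of most of the chain, was at 30.8 TPM. Its log2 fold change was 1.32 ± 0.18 (SE, limma adjusted p = 2.86e-05). It was 1.46 in E19 samples alone (limma adjusted p = 0.00177), 1.105 in E20 samples alone (limma adjusted p = 0.0414) and 1.37 without tumor 2 (limma adjusted p = 2.03e-05). Per length, Atp5if1 was at 1.54% to 3.53% of Atp5f1b in livers and at 4.59% to 28.6% in tumors, or up to 14.1% without tumor 2, so that the ratio was higher in every tumor than in every liver.

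**Figure D3:**
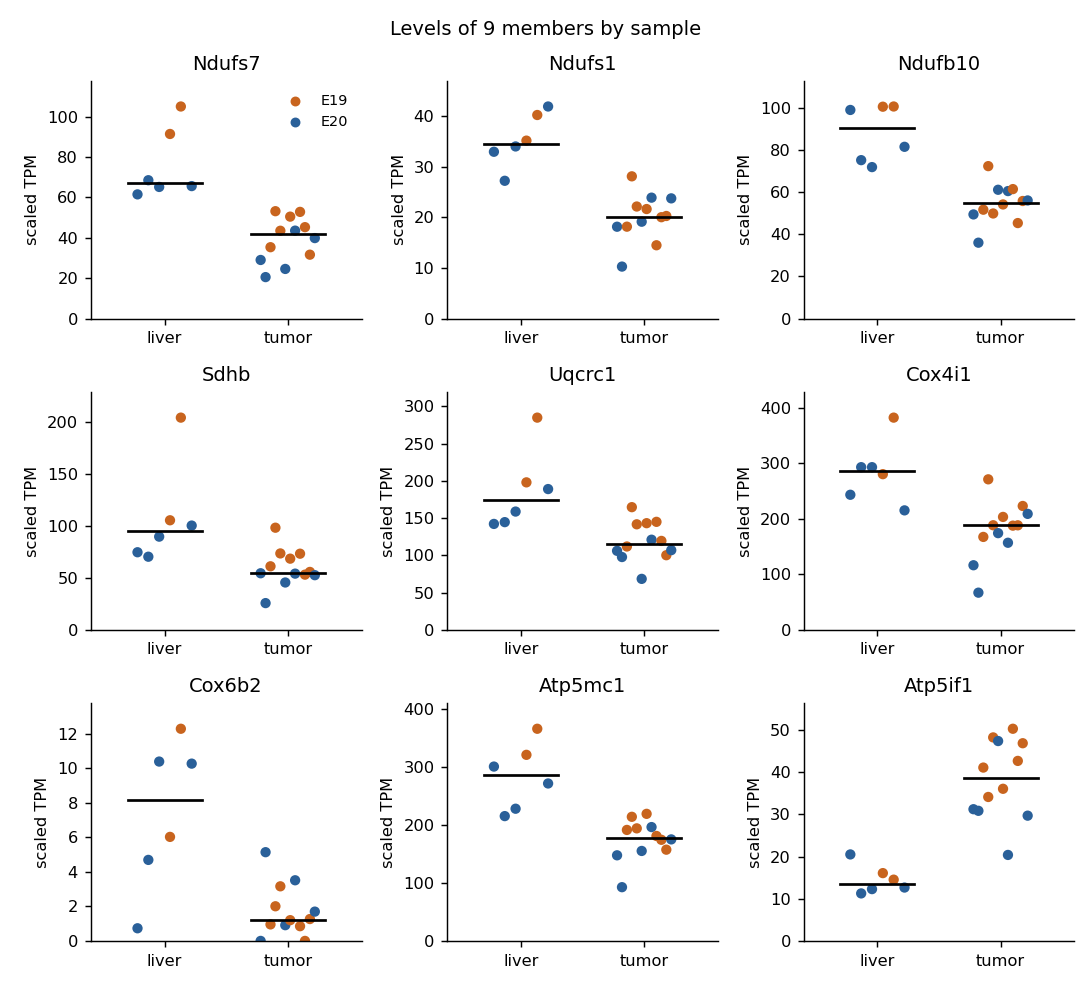
Levels in scaled TPM of 9 genes in the 6 livers and 12 tumors, coloured by tag, with bars at the medians. In Ndufs7 all tumors lie below all livers, and in Atp5if1 11 of 12 tumors lie above the highest liver.

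Several subunits exist as isoforms, one in most tissues and one in muscle, testis, lung or other special cells. Livers and tumors used the usual isoform in each pair. Cox7b2 was at 0 in all samples, and Cox4i2, Cox6a2 and Cox8b were at 0 in all livers and reached 1 deposited TPM in at most 2 tumors. Of 6 markers of striated muscle, which carries Cox6a2 and Cox8b, 4 were likewise at 0 in all samples. Of 9 markers of pericytes, stellate and smooth muscle cells, the first of which carry Cox4i2, 2 of the 6 tested were lower in tumors, and their summed level was 24.2 to 33.2 TPM in livers and 10.3 to 41.5 in tumors. Of 4 markers of brown fat, which carries Cox7a1, Ucp1 and Dio2 were at 0 in all samples and 1 of 2 tested, Cidea, was higher and at 0 in all livers. Cidea could be tested through its values in tumors alone, so its call as higher is no result beyond this listing. The summed level of the 4 markers, most of it from Ppara, a gene that hepatocytes also express, was 72.6 to 195.5 TPM in livers and 71.96 to 198.9 TPM in tumors. Cox7a1 was at 0.71% to 2.88% of the sum with Cox7a2 in livers and at 0% to 3.33% in tumors, and it was not called (log2 fold change -0.16 ± 0.29, and 0.01 without tumor 2). Ndufa4l2, a gene induced by hypoxia, was at 0.45% to 2.06% of the sum with Ndufa4 in livers and at most at 7.38% in tumors, in tumor 10, and was not called either (0.08 ± 0.32, and -0.11 with the tag). The range overlapped between tissues in both.

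Cox6b2, the isoform of testis, on chromosome 7 from 4751792 to 4753094, was lower in tumors. It was at 0.73, 4.69, 10.4, 6.03, 12.3 and 10.3 TPM in livers 1 to 6 and at 0 to 5.14 TPM in tumors with a median of 1.23, the highest being tumor 2, in which 5.14 stands for 1 deposited TPM. The groups overlapped through livers 1 and 2, the latter through tumor 2 alone, and 2 tumors were at 0. The log2 fold change was -1.56 ± 0.41 (SE, limma adjusted p = 0.00981), the lowest of the genes called in the chain, at levels of a few rounded TPM. Cox6b1, the usual isoform, was at 218 to 455 TPM in livers and at 77.1 to 315 TPM in tumors and was not called (-0.38, limma adjusted p = 0.311, and -0.22 without tumor 2). Cox6b2 thus made up 0.33% to 3.63% of the pair in livers (median 2.32%) and 0% to 6.25% in tumors (median 0.46%), with tumor 2 above every liver.

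The c subunit is encoded by 3 genes that give the same mature protein. In livers, Atp5mc1 held 33.9% to 43.0% of their sum, Atp5mc2 19.4% to 26.6% and Atp5mc3 30.3% to 46.6%. In tumors the shares were 27.2% to 40.0%, 13.3% to 32.0% and 36.6% to 50.1%. The share of Atp5mc1 had a median of 34.7% in livers and of 31.7% in tumors, and the ranges overlapped. The log2 fold changes of Atp5mc2 (-0.54 ± 0.30) and Atp5mc3 (-0.38 ± 0.21) were not called in all samples, and were -0.34 and -0.25 without tumor 2.

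The 2 copies that could be tested share sequence with their parent genes, so that reads may have been split between them. Cox5b-ps was listed at 0 in all 6 livers and in tumor 2 and at 0.70 to 3.82 TPM in the other 11 tumors, while Cox5b itself was lower in tumors. It could be tested through its values in tumors alone, so its call as higher is no result beyond this listing. Ndufs5-ps was at 1.89 to 23.5 TPM in livers and at 0 to 22.8 TPM in tumors and was not called (limma adjusted p = 0.153), nor was Ndufs5 (-0.15 ± 0.27).

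Short motifs of 4 factors known for respiratory chain genes were searched on both strands of RefSeq promoters, from 250 bases before to 50 after each start in GRCm38.p6. Of the 89 genes 71 had such a window, and of the starts of their 76 windows 72 lay within 100 bases of a transcript start in GENCODE. GCATGCGC, of NRF1, was found in 10 of the 71 genes (14.1%), where 5.99% of the 9104 tested genes with a window and 2.71% of all 32851 windows held it. AAGATGGC, of YY1, was found in 10 genes as well (14.1%, against 5.38% and 2.75%). CCGGAAGT, of GABPA, was found in 5 genes (7.04%, against 9.48% and 3.89%), and TCAAGGTCA, of ESRRA, in 2 genes (2.82%, against 0.319% and 0.423%). The run GCGCATGCGC matches the motif of NRF1 on both strands and was counted once. Of the 13 genes lower in tumors with a window, 2 held the motif of NRF1, 1 that of YY1 and 0 those of GABPA or ESRRA.

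The matches in genes lower in tumors, with or without the tag as a covariate, are shown as 30 bases 5′ to 3′ along the gene, with the match in capitals. They let a reader see the letters behind the counts. Sdhb, Uqcrc1 and Ndufs7 were lower in all samples and the others with the tag. For NRF1 these are Sdhb (chr4:140961206-140961235), Uqcrc1 (chr9:108936667-108936696), Atp5mc2 (chr15:102671071-102671100), Cox6a1 (chr5:115349102-115349131) and Ndufa11 (chr17:56717691-56717720).
Sdhb: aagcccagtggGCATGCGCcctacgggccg
Uqcrc1: gactccgctctGCGCATGCGCagcgcggct
Atp5mc2: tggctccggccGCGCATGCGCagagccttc
Cox6a1: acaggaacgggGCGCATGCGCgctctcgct
Ndufa11: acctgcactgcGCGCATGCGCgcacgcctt

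For YY1 they are Ndufs7 (chr10:80249462-80249491), Ndufa3 (chr7:3617384-3617413), Ndufa9 (chr6:126849097-126849126) and Ndufb8 (chr19:44555393-44555422), all 4 with the match on the strand of the gene and after its start.
Ndufs7: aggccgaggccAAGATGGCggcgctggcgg
Ndufa3: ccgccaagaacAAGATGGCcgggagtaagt
Ndufa9: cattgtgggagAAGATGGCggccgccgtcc
Ndufb8: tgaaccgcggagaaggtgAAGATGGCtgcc

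For GABPA they are Atp5pd (chr11:115419940-115419969), Cox8a (chr19:7217604-7217633) and Ndufs3 (chr2:90904703-90904732), and for ESRRA Atp5mc3 (chr2:73911359-73911388) and Sdhd (chr9:50603800-50603829), with the match on the opposite strand in all 5.
Atp5pd: ccaaggagagaACTTCCGGcaactctcttc
Cox8a: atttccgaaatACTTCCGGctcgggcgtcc
Ndufs3: tgcacatttccACTTCCGGtccgtgccctt
Atp5mc3: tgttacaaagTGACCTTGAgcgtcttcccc
Sdhd: tttccgggttgtagagTGACCTTGAgccct

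Of the factors themselves, Esrra, a nuclear receptor that drives genes of oxidative metabolism, was lower in tumors. It was at 12.65 to 18.99 TPM in livers and at 5.14 to 13.04 TPM in tumors (log2 fold change -0.62, limma adjusted p = 0.0137). Its coactivator Ppargc1b was lower too (2.20 to 11.05 and 0.79 to 5.94 TPM, log2 fold change -1.08, limma adjusted p = 0.021), a call lost without liver 2, 3 or 4. Of 15 regulators of mitochondrial biogenesis tested, 3 were lower and 0 higher (0 by unadjusted p), with a median of -0.17.

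The subunits encoded in mitochondrial DNA, of which 8 of 13 were analysed here, had log2 fold changes between -1.37 and -0.60 in tumors. Their median was -0.95, and -0.78 with the tag as a covariate, in both fits with tumor 2 included. The table gives them without a prefix. ND5, a proton-pumping subunit of complex I, and COX3, of complex IV, were called. ND5 was at 124 to 393 TPM in livers and at 40.3 to 251 TPM in tumors (log2 fold change -1.19 ± 0.31, SE, limma adjusted p = 0.00849). COX3 was at 2596 to 5261 TPM in livers and at 689 to 3066 TPM in tumors (log2 fold change -0.87 ± 0.28, SE, limma adjusted p = 0.034), and 14 of 37 other settings did not call it.

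Between tags, these 8 genes had log2 differences of E20 against E19 between -0.62 and 1.41, with a median of 0.77, where the nuclear-encoded genes had a median of -0.59. Their median log2 level against the mean of the livers was -0.20 and -1.17 in the livers with E19 and 0.00 to 0.77 in those with E20. It was -1.83 to -0.51 in the tumors with E19 and -0.34 to -0.02 in those with E20 other than tumor 2, at -2.32. In the limma fit with E20 against E19, 2 of the 8 genes were higher in E20, and 4 were without tumor 2. Liver 5 thus had the highest median of nuclear-encoded subunits and the lowest of mtDNA-encoded ones among livers. With the tag as a covariate, the same 2 genes, ND5 and COX3, were lower in tumors.

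**Figure D4:**
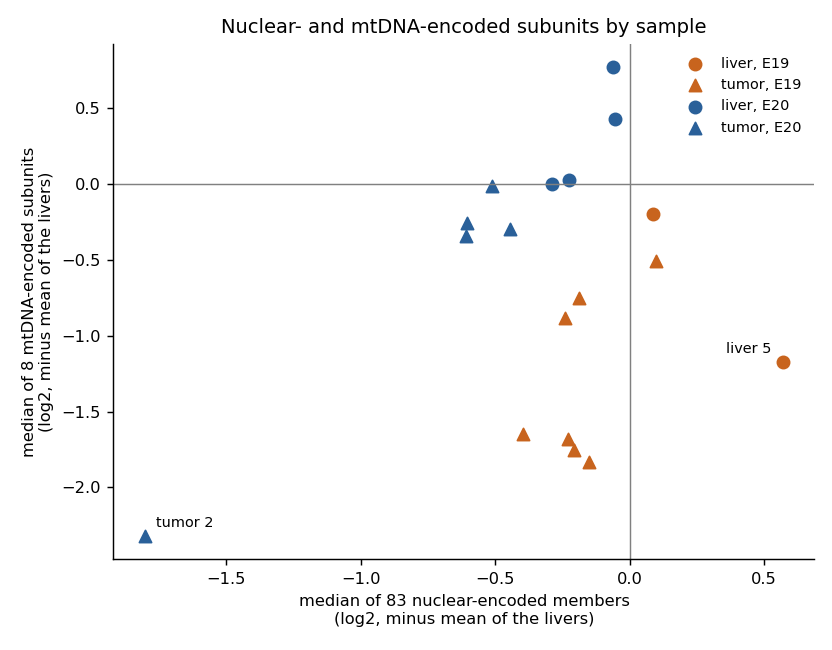
Each point is a sample, with the median over the 83 tested nuclear-encoded genes on the horizontal axis and over 8 mtDNA-encoded genes on the vertical axis, both as log2 differences from the mean of the livers. E20 samples other than tumor 2 lie to the upper left of E19 samples, in livers and in tumors.

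Assembly factors place cofactors and subunits in the complexes. Of 14 assembly factors of complex I, Ecsit was lower in tumors (11.7 to 22.3 TPM in livers, 5.14 to 13.4 in tumors, log2 fold change -0.75, limma adjusted p = 0.00443), and the median was -0.31. Of 32 assembly factors of complexes II to V, Sco2, which brings copper to complex IV, and Taco1, which activates the translation of COX1, were lower (-0.81 and -0.53, limma adjusted p = 0.0355 and 0.0345), calls lost in 17 and 15 of 37 other settings, and the median was -0.12. Of 14 genes of the tricarboxylic acid cycle, Fh1, Idh3b and Suclg2 were lower, with a median of -0.34. Fh1, fumarate hydratase, which follows complex II in the cycle, was at 45.05 to 89.36 TPM in livers and at 10.3 to 52.2 TPM in tumors, 11 of 12 below the lowest liver (log2 fold change -0.88 ± 0.24, SE, limma adjusted p = 0.0133).

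None of 78 mitochondrial ribosomal protein genes was called (limma, 0 by adjusted p, 2 higher and 2 lower by unadjusted p), and their median was -0.09. The same held for 78 cytosolic ribosomal protein genes (limma, 0 by adjusted and 0 by unadjusted p, median 0.03). It also held for 13 genes of mitochondrial membranes, protein import and chaperones (limma, 0 by adjusted p, 2 lower by unadjusted p, median -0.12). With the tag as a covariate 4, 1 and 2 genes of these lists were lower. Their median in tumor 2 was -1.14, -1.34 and -1.75, against -1.80 for the respiratory chain.

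In coenzyme Q synthesis, 2 related kinases moved in opposite directions. Coq8b was at 6.32 to 10.1 TPM in livers and at 10.3 to 41.0 TPM in tumors (log2 fold change 1.64 ± 0.23, SE, limma adjusted p = 2.71e-05). Every tumor lay above every liver, but the lowest tumor was close to the highest liver, a small gap for rounded values. Coq8a was at 62.3 to 503 TPM in livers and at 44.5 to 160 TPM in tumors (log2 fold change -1.21 ± 0.34, SE, limma adjusted p = 0.0146), a call lost without liver 5. Of 9 genes of the hypoxia response, Pdk1, a kinase that keeps pyruvate out of the cycle, was lower in tumors (-0.85, limma adjusted p = 0.00856), and 0 were higher (0 by unadjusted p).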

How the data were processed

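Bulk RNA-seq of 6 non-tumoral livers and 12 tumors of Alb-R26Met mice was used. Poly-A RNA was sequenced in pairs of reads, aligned to GRCm38 and quantified as TPM with Salmon by the authors. The deposited values are a score, TPM rounded to integers (raw counts, in the words of the paper): of 900 values also given as TPM in its supplement, 882 are equal after rounding. Counting errors cannot be had from TPM, and a 0 is any TPM that rounds to 0. Totals were 835144 to 907513. The table has 28442 genes, and 8 lines had an extra separator. Labels and paper give different mouse numbers for 2 tumors, which were matched by tumor number and tag.

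Because values are not counts, log values were tested in place of counts. Each sample was scaled by a trimmed mean of M values, with 30% of M and 5% of A values left out. Genes reaching 1 in at least 6 samples were fitted, as log2 of the scaled value plus 1, with limma (version 3.58.1, R version 4.3.3) and a variance trend. This scale understates fold changes of low genes. P-values are Benjamini-Hochberg adjusted over all genes tested, with 0.05 as the limit. The fit was tested on simulated data. Descriptions used Python 3.11.15 and pandas 2.3.3.

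The genes, lists and tests were chosen with earlier results of these data known. Named are genes of the chain that were called and changed by 1 or more on the log2 scale, the 5 highest and 5 lowest called, the most abundant gene in livers of each complex, all isoforms, all of complex II, and of each other list the called genes with the highest and lowest log2 fold change. Others were named after their values were seen, and 1 tested gene of the chain is included in counts but left out of the plot of fold changes and not reported here. Positions and promoters came from RefSeq (GRCm38.p6), found by Entrez number. Alternatives covered scaling, filter, pseudocount, tag, age, replicate number, weights and each sample left out. Those combining the loss of tumor 2 with another change were added after seeing the data.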

Additional observations from a re-analysis of the deposited data

Results flagged for a closer look

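Among 42 liver values or medians tested for a sample far from the other 5, 4 passed the limit, where chance alone would give about 1 in 20. In Ndufv1, liver 5 was at 241 TPM with the next liver at 129, a gap of 0.821 of the whole range. In Sdhb, liver 5 was at 204 TPM with the next at 105 (0.738 of the range). In Cox7a2, liver 5 was at 240 TPM with the next at 140 (0.69 of the range). In Cox5b, liver 2 was lowest, at 136 TPM, with the next at 194 (0.71 of the range). The first 2 genes lost their call without liver 5.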

How the results depend on the processing

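The count of 15 genes lower in tumors fell to 1 without scaling, to 6 with scaling to the total without the highest gene, and to 1 within E20 samples. It rose to 41 with the tag as a covariate, to 26 with sample quality weights and to 44 without tumor 2 with the tag. Without 1 sample it ran from 7 (without liver 5) to 20 (without tumor 2), and was 9 without liver 4 or liver 6. The count of 2 genes higher was 1 without scaling, with a filter of at least 5, within E19 and within E20 samples, and 1 to 2 without 1 sample, 1 without tumor 1 or tumor 10. With the number as a replicate block over livers 1 to 6 and tumors 1 to 6, 8 genes were lower and 1 higher, and without the block these 12 samples gave 6 and 1. Same-numbered livers and tumors came from different mice, so the number is not a pairing by animal. Their deviations correlated at -0.105 to 0.422, in 3 of 6 pairs over 0.1. The mean was 0.178, against -0.0355 for differently numbered pairs, and 3 of 6 livers correlated best with the tumor of their number.

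All other settings gave counts within 1.5 times. For single genes, 1729 values kept their direction and side of the limit, 210 lost the call, 40 gained it and 45 had the opposite sign, all in genes not called. Atp5if1 lost its call only without scaling. Rounding limits genes of a few TPM, such as Cox6b2 and Cox5b-ps. Counts over all genes moved over 1.5 times without scaling (1341), within E19 (1344) or E20 samples (405), for the 12 samples with the block (1351) and without it (1217), and with weights (4702), against 2230.

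Opposite signs were those of Ndufa1 with scaling by the median of ratios (0.014), and of Ndufa1 (0.065) and Cox7a2l (0.047) with scaling to the total without the highest gene. Ndufa1 was at 0.0025 with age as a covariate and at 0.22 within E19 samples. Ndufa4l2 was at -0.11 with the tag, at -0.32 within E19 samples and at -0.33 in the 12 samples with and without the block. With weights, Cox7a1 was at 0.12, Cox7a2l at 0.18, Ndufa1 at 0.14 and Ndufs5 at 0.021. Without tumor 2 and with the tag, Cox7a2l was at 0.020 and Ndufa1 at 0.095. Without tumor 2 and liver 5, Cox7a1 was at 0.12, Ndufa4 at 0.0011, Cox7a2l at 0.26, Cox7c at 0.086, Ndufa1 at 0.21 and Ndufs5 at 0.14. Without tumor 2 and with the median of ratios, Cox7a1 was at 0.0022, Cox7a2l at 0.14, Ndufa1 at 0.15 and Ndufs5 at 0.0067, and with the total without the highest gene at 0.078, 0.25, 0.25 and 0.11, with Cox7c at 0.052. Without 1 sample, Cox7a1 ran from -0.32 to 0.0099, Ndufa4l2 from -0.079 to 0.23, Cox7a2l from -0.12 to 0.15, Ndufa1 from -0.092 to 0.16 and Ndufs5 from -0.28 to 0.017. The cause of these changes was not tested.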
